A study of Mus musculus with 12 samples.

Results

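Cycling CD8+ T cells were examined in single-cell RNA-seq of CD45+ leukocytes from MC38 tumors, a mouse colon carcinoma line grown under the skin of C57BL/6 mice. The cells were chosen by their measured UMIs: a cell was a member if it held at least 1 UMI (a unique molecular identifier, counted once for each captured transcript) over *Cd3d*, *Cd3e* and *Cd3g*, at least 1 over *Cd8a* and *Cd8b1*, none of *Cd4*, *Adgre1* or *Csf1r*, and at least 1 each of *Mki67* and *Top2a*. Of 128912 cells that passed the quality limits, 3870 met the CD8 part of the rule and 524 of these were cycling. The comparison cells were the 2758 CD8-gated cells with neither *Mki67* nor *Top2a*, called non-cycling here. Another 175 CD8-gated cells held *Mki67* without *Top2a* and 413 held *Top2a* without *Mki67*, and these stood just outside the rule.

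The study had 4 groups of 3 mice, all bearing MC38 tumors collected on day 17 after implantation. Mice received the EZH2 inhibitor (EZH2i) PF-06821497 at 100 mg/kg for 16 days, the same dose for 7 days, or vehicle for 16 or 7 days. The methods describe daily subcutaneous dosing of female mice, and the cells were enriched with CD45 microbeads, so that tumor and stromal cells were depleted before capture. The deposited matrix pools 12 libraries, and no label ties a library number to a mouse or a treatment. The pool was therefore handled as 1 sample, no p-value was computed, and EZH2i was not compared with vehicle. Intervals are 95% and cover counting error only. The libraries held between 21649947 and 158760328 UMIs each.

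T cells that have met antigen divide by passing from G1, where D-type cyclins and CDK4/6 inactivate the retinoblastoma protein family, into S phase, where E2F-driven genes supply replication factors and nucleotides, and then through G2 into mitosis under cyclin A, cyclin B and CDK1. Mki67 encodes the proliferation antigen Ki-67, which is made in all active phases, and Top2a encodes the topoisomerase that untangles sister chromatids and is most abundant from late S phase to mitosis. EZH2 is the catalytic subunit of Polycomb repressive complex 2 (PRC2), which methylates histone H3 on lysine 27 and is known for its high expression in dividing lymphocytes.

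The genes the cells were selected on are described without a test. *Mki67* (ENSMUSG00000031004, GRCm38, chr7:135689784-135716361, minus strand) had a median of 2 UMIs per cycling cell, between 1 and 29, and *Top2a* (ENSMUSG00000020914, chr11:98992943-99024189, minus strand) had a median of 4, between 1 and 36. In 56 of the 524 cells (10.7%) each gene had exactly 1 UMI, which is the edge of the rule. The T cell genes of the gate were somewhat lower in cycling cells. *Cd8a* was at 494 UMIs for each 1000000 UMIs of the same cells (CPM) in cycling and 549 in non-cycling cells. *Cd8b1* was at 535 and 634, and *Cd3e* at 385 and 478. The rule asked for UMIs of these genes in both kinds, so that their levels depend in part on it. Markers of B cells (*Pax5*), regulatory T cells (*Foxp3*) and γδ T cells (*Trdv4*, *Tcrg-V6*, *Sox13*, *Il17a*, *Cd163l1* and *Blk*) were at 0 in the cycling cells, which allows up to 3 UMIs each over all of them. Other markers of these types were detected, 8 of 9 for B and plasma cells, 8 of 9 for CD4 or regulatory T cells and 4 of 10 for γδ T cells. By the rule every member held *Mki67*, *Top2a* and *Cd8a* or *Cd8b1*, and *Cd8a* itself was seen in 444 of the 524 cells (84.7%).

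UMIs of genes listed as markers of other cells were present. The summed level of 14 macrophage markers (among them *C1qa*, *Lyz2* and *Apoe*) was 3476 CPM in cycling and 5464 CPM in non-cycling cells, against 63680 CPM in non-cycling macrophage-gated cells. Over 8 libraries the sum ran from 649.7 to 11159 CPM in cycling and from 1723 to 15069 CPM in non-cycling cells, and was the higher in cycling cells in 1 of the 8. All 14 markers had UMIs in both kinds. The neutrophil, dendritic cell and tumor or stromal marker lists were likewise lower in cycling cells in 7 of 8 libraries, with summed levels of 159.5 against 269.6, 822 against 1011, and 1371 against 1745 CPM. The natural killer (848 against 997), γδ T cell (150.2 against 130.8) and CD4 or regulatory T cell lists (607 against 540.1) differed less, the last 2 being higher in cycling cells, and B and plasma cell markers were at 12.4 and 14.7 CPM. In non-cycling macrophage-gated and B cell-gated cells the tumor or stromal list was at 676 and 523 CPM. The natural killer list was at 6.24 and 0 there. Both lists were thus higher in the CD8-gated cells, and whether their UMIs came from other cells was not tested. Cells with over 0.5% of their UMIs on the myeloid, B cell and stromal lists made up 28.1% of cycling and 44.1% of non-cycling cells.

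The cycling cells were unevenly spread. Their number per library ran from 1 to 144 with a median of 31.5, and 8 libraries held at least 20 cells of each kind, with 497 of the 524 cycling cells. Cycling cells were 13.5% of all CD8-gated cells (exact Clopper-Pearson interval 12.5 to 14.7) and 6.52 to 18.6% of them in these 8 libraries, with a median of 13.5%. In B cell-gated cells 2 of 214 (0.935%) held UMIs of both *Mki67* and *Top2a*, and in neutrophil-gated cells 6 of 2858 (0.21%) did, at median depths of 1367 and 1237 UMIs. Among CD4-gated T cells the share was 7.21% and among macrophage-gated cells 14.8%.

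The share was also counted at equal depth, since a rule of 1 UMI is met more easily in a deeper cell. Whether the depth of cycling cells followed from their division was not tested. The median depth of the cycling cells and the share did not rank alike over the 8 libraries. That median is taken over cells already chosen as cycling, so that this ranking cannot show how depth affected the share. Library 8 had the highest cycling median (13088 UMIs) and a share of 6.52%, and library 3 the next (10159) and 18.6%. Library 6 had the lowest median (2890) and 12.8%. Cycling cells had a median of 5312 UMIs and 1977 genes and non-cycling cells 2412 UMIs and 1085 genes. In each of the 8 libraries the cycling median was the higher, by 2.0 to 3.23 times. Cells with CD3 and CD8 UMIs and at least 1000 UMIs were thinned to 1000, and the whole rule was then applied to the thinned counts. In this set 106 of 2555 CD8-gated cells (4.15%, 3.41 to 5.0) were cycling, and the 8 libraries ran from 1.20 to 8.09%. Another 340 cells with CD3 and CD8 UMIs were under that depth and left out. *Cd4*, *Adgre1* and *Csf1r* were checked after thinning only, so that cells outside the 3870 could enter. Mitochondrial UMIs were 4.30% of the total in cycling and 4.34% in non-cycling cells, and ribosomal protein genes took 24.6% and 26.9%.

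**Figure D1:**
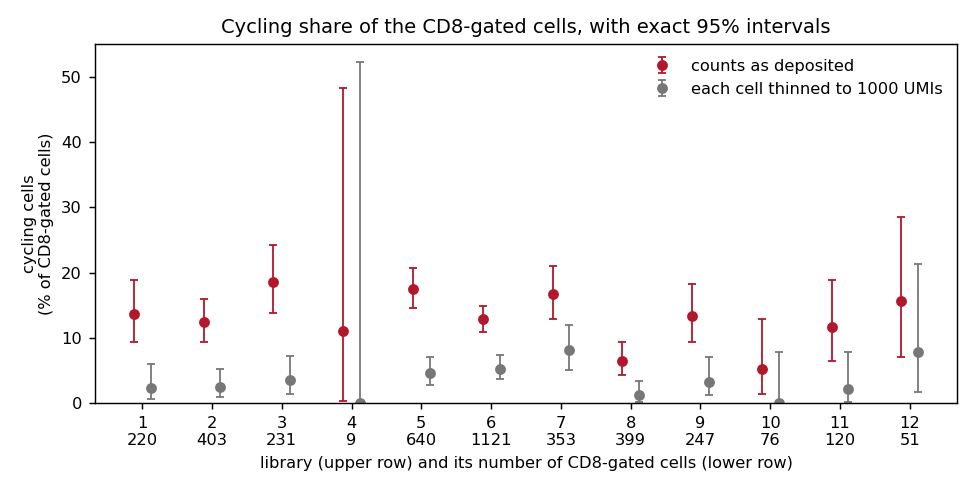
Share of CD8-gated cells that were cycling in each of the 12 libraries (y axis, percent, with exact 95% intervals), beside the number of CD8-gated cells on the x axis. In the 8 libraries with enough cells the share ran from 6.52 to 18.6%, and the other libraries held 27 cycling cells between them.

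Libraries 1 to 6 held UMIs of Y-linked genes and libraries 7 to 12 did not, although the methods describe female mice. The X-linked *Xist* went the other way, at 0.0123 to 0.0592 CPM over all kept cells in libraries 1 to 6. In libraries 7 to 12 it was at 658 to 870 CPM. Of the CD8-gated cells, 14.5% (13.2 to 15.9) were cycling in the 6 libraries with Y-linked UMIs and 11.6% (9.83 to 13.5) in the 6 without. In the set thinned to 1000 UMIs and then gated, as above, the shares were 4.17% (3.27 to 5.24) and 4.10% (2.89 to 5.64). Gene results below were also computed within each set. Library 4 stood apart, with 9 CD8-gated cells among 11298 kept and 1 cycling cell. Barcode sequences shared between libraries covered 3775 kept cells, 11 of them cycling, and no barcode was shared between cycling cells of 2 libraries.

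The position of the cells in the cycle was read from lists of 43 S-phase and 52 G2/M genes, from which *Mki67* and *Top2a* were left out. After thinning to 1000 UMIs per cell, a cycling cell had a median of 4 UMIs on the S-phase list (5th to 95th percentile 0 to 10.95) and 10 on the G2/M list (2 to 22.95). Non-cycling cells had medians of 1 (0 to 4) and 2 (0 to 5). Of 522 thinned cycling cells, 399 had more G2/M than S-phase UMIs, 92 had more S-phase UMIs and 31 had equal numbers. The lists differ in size and their genes in level, so that this balance orders the cells and does not time them. The rule also required *Top2a*, which is most abundant from late S phase to mitosis. How far the rule set this balance was not tested. The 2 kinds overlapped: 894 non-cycling cells (36.3%) were at or above 4 UMIs on both lists together, the 5th percentile of the cycling cells. Cells with *Mki67* alone had medians of 1 and 2 UMIs per 1000 on the 2 lists, and cells with *Top2a* alone 2 and 3, both nearer to the non-cycling than to the cycling cells.

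**Figure D2:**
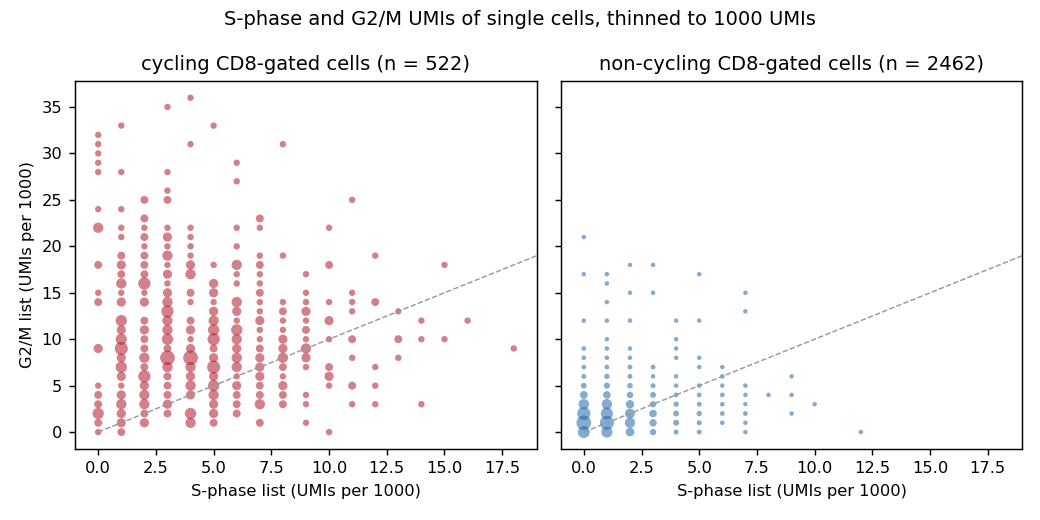
UMIs per 1000 on the S-phase list (x axis) and the G2/M list (y axis) of single CD8-gated cells, with cycling and non-cycling cells in separate panels and a dashed line where both are equal. Cycling cells spread up to high values on both axes, with 399 of 522 above the line, while non-cycling cells gathered near the origin.

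Levels were compared within libraries as the ratio of CPM in cycling over non-cycling cells, pooled with Mantel-Haenszel weights, and a gene was called at 2-fold or more. Of 7505 genes with a mean of at least 10 CPM over the 2 kinds, 447 (5.96%) were called higher and 136 (1.81%) lower in cycling cells. Of the genes tested, 362 reached that level only through the cycling cells and 248 only through the non-cycling cells, so that the counts include genes admitted by the kind in which they were high. Of the 447, 409 were higher in all 8 libraries, and of the 136, 85 were lower in all 8. The library values of the 2 kinds did not overlap for 437 genes that were higher in cycling cells (5.82%) and 27 that were lower (0.36%). The median log2 ratio of all genes tested was 0.00. CPM is a share of a cell's UMIs, and cycling cells held more UMIs: of the 136 genes called lower in CPM, 86 were also lower in UMIs per cell, and only *Tcp11l2* was lower by 2-fold or more on that scale (0.0401 UMIs per cycling and 0.127 per non-cycling cell). The calls below were therefore also computed with non-cycling cells weighted to the UMI counts of the cycling cells, which left an effective 400.5 non-cycling cells. With those weights 120 of the 140 list genes called higher were still called, and 9 of the 23 called lower. Over all genes the weights gave 425 higher and 313 lower, against 447 and 136 without. Markers of other cells moved as well. With the weights 6 of 14 macrophage, 4 of 4 neutrophil and 3 of 5 dendritic cell markers were 2-fold or more lower, against 0, 2 and 1 without. No tested natural killer, γδ T cell, CD4 or regulatory T cell, or tumor or stromal marker was, with medians of 0.31, 0.81, 0.24 and −0.42. The weighted values may therefore differ in more than depth. What UMIs of other cells added to them was not tested.

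**Figure D3:**
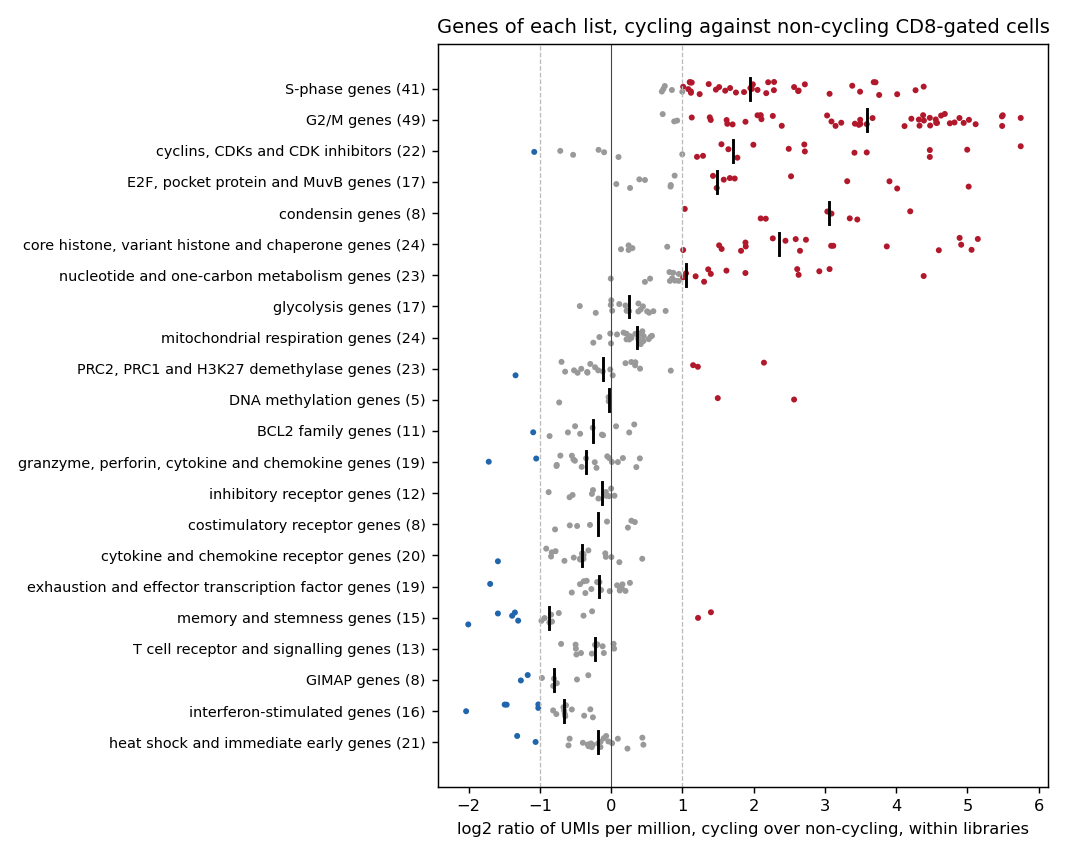
Log2 ratio of CPM in cycling over non-cycling CD8-gated cells for each tested gene (points) of the gene lists, with the number of tested genes beside each list and the lines of 2-fold change. The S-phase, G2/M, condensin and histone lists lay to the right, with medians of 1.95, 3.59, 3.06 and 2.36, while the inhibitory receptor and glycolysis lists lay near 0, at −0.13 and 0.25.

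DNA replication genes were higher in cycling cells. Of 41 S-phase genes tested, 36 were called higher and none lower, with a median log2 ratio of 1.95. *Mcm5* (ENSMUSG00000005410, chr8:75109569-75128439, plus strand), a subunit of the MCM helicase that unwinds origins, was at 84.2, 127 and 184 CPM (lowest, median and highest of the 8 libraries) in cycling and 13.5, 41.1 and 61.6 in non-cycling cells, a log2 ratio of 1.67 (1.46 to 1.87). *Pcna*, the sliding clamp of the replicative polymerases, was at 191, 281 and 339 CPM against 65, 95.7 and 143, a log2 ratio of 1.47 (1.33 to 1.6). The library values of the 2 kinds did not overlap for either gene. *Rrm2*, the regulated subunit of ribonucleotide reductase, had the largest ratio of the list at 4.39 (4.04 to 4.73), from 9.40 CPM in non-cycling to 194 CPM in cycling cells. Small ratios that missed the limit included those of the single-strand binding subunit *Rpa2* (0.73) and the helicase subunit *Mcm2* (0.75).

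Mitotic genes showed larger ratios than S-phase genes. Members had to hold *Top2a*, so that this difference cannot be told apart from the rule. Of 49 G2/M genes tested, 46 were called higher and none lower, with a median log2 ratio of 3.59, and the 3 others were *Jpt1* (0.72), *G2e3* (0.88) and *Ctcf* (0.93). *Cdk1* (ENSMUSG00000019942, chr10:69335146-69352938, minus strand), the mitotic kinase, was at 126, 236 and 295 CPM in cycling and 6.43, 7.70 and 14.9 in non-cycling cells, a log2 ratio of 4.47 (4.12 to 4.82). *Cdc20* (ENSMUSG00000006398, chr4:118432901-118437352, minus strand), an activator of the anaphase-promoting complex, was at 48.4, 65.5 and 176 CPM against 1.67, 3.90 and 5.83, a log2 ratio of 4.32 (3.8 to 4.84). For both genes every library of cycling cells was above every library of non-cycling cells. *Birc5*, which encodes the chromosomal passenger protein survivin, was at 414 and 17.4 CPM (log2 4.48), and *Hmgb2*, a DNA-bending chromatin protein, at 2750 and 532 (log2 2.39). At the thinned depth 16.3% of cycling cells, 0.853% of non-cycling cells and 0.585% of B cell-gated cells held *Cdk1*, the last share resting on 1 of 171 cells (0.0148 to 3.21).

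Promoters of these genes were read for 3 motifs known from cell cycle control. The letters searched on both strands in the 250 bases before each RefSeq start were TTTGAA (a core of the CHR element bound by MuvB complexes), CCAAT (bound by NF-Y), and TTTGGCGC or TTTCCCGC (forms of the E2F site). Over 27025 genes of the RefSeq promoter table (GRCm38.p6) these were present in 18.3%, 37.5%, 0.485% and 1.03% of promoters. Of the 45 G2/M genes of 52 that had an entry, 18 (40%) held TTTGAA and 34 (75.6%) held CCAAT. Of 7 condensin genes with an entry 5 (71.4%) held TTTGAA, against 1 of 23 (4.35%) nucleotide metabolism genes. For CCAAT the same lists held 3 (42.9%) and 13 (56.5%), and for either form of the E2F site 2 (28.6%) and 1 (4.35%). For the S-phase list 31 of 43 genes had an entry, and with under 80% matched its shares were void. The same held for the genes tested, of which 5968 of 7505 had an entry. A match of these letters is a description of the sequence and not evidence of binding.

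The 3 promoters that follow are shown for a replication gene and a pair of mitotic genes whose library values did not overlap. They run 5′ to 3′ on the gene's strand from 250 bases before the RefSeq start to the last base before it, with motif matches in capitals. They lie at chr8:75109259-75109508 (plus strand, *Mcm5*), chr10:69352913-69353162 (minus strand, *Cdk1*) and chr4:118437344-118437593 (minus strand, *Cdc20*), GRCm38.p6.
Mcm5: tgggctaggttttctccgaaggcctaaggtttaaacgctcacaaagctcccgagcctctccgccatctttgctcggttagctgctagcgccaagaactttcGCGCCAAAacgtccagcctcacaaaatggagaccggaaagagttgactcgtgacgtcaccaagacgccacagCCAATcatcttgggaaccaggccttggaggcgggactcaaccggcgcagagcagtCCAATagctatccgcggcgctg
Cdk1: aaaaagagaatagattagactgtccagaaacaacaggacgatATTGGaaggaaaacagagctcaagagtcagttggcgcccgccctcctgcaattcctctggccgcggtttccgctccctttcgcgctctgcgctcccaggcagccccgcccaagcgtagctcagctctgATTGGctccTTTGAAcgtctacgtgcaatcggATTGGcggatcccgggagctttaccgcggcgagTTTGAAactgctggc
Cdc20: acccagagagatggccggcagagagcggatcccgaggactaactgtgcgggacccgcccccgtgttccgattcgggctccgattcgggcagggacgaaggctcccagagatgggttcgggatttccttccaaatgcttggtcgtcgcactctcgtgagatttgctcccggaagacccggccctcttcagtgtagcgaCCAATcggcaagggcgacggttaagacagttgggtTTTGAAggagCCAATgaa
Gene spans elsewhere in the text are from GENCODE, whose starts differ from those of RefSeq, so that the *Cdk1* and *Cdc20* windows overlap the printed spans. The *Mcm5* window held TTTGGCGC on the opposite strand, 149 to 142 bases before the start, and CCAAT at 77 to 73 and 22 to 18 bases. The *Cdk1* window held TTTGAA at 71 to 66 and 15 to 10 bases and CCAAT 3 times on the opposite strand. The *Cdc20* window held TTTGAA at 18 to 13 bases, between CCAAT at 53 to 49 and at 8 to 4.

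Cyclins and their partners did not all move alike. Of 22 genes of the cyclin, CDK and CDK inhibitor list tested, 15 were called higher and 1 lower. Some of them, such as *Cdk1*, are also on the S-phase or G2/M list and were counted there. The same holds for the E2F, condensin, histone, nucleotide and DNA methylation lists below, so that the counts of these lists are not separate. *Ccna2*, the S and G2 cyclin, was at 103, 154 and 274 CPM in cycling and 0, 1.31 and 10.8 in non-cycling cells (log2 5.75, 5.15 to 6.34), and *Ccnb1*, the mitotic cyclin, at 81.2 and 4.01 CPM over all libraries (log2 4.47). *Ccne1*, the G1/S cyclin, had a log2 ratio of 2.71 and *Cdk2*, its kinase, 1.64. The G1 genes gave smaller values, with *Cdk4* at 0.997, just under the limit, *Cdk6* at −0.10, *Ccnd3* at −0.18 and *Ccnd1* at −0.72. A G1 cell without *Top2a* could not be a member. With the weights *Ccnd1* was at −1.59, past 2-fold.

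The gene called lower was *Ccnd2* (ENSMUSG00000000184, chr6:127125162-127152193, minus strand), which encodes the G1 cyclin D2. It was at 116, 199 and 297 CPM in cycling and 268, 424 and 573 in non-cycling cells, a log2 ratio of −1.08 (−1.19 to −0.97). Cycling cells were lower in 8 of 8 libraries, although the ranges overlapped. With non-cycling cells weighted by UMI count the value was −0.84, short of 2-fold, and in UMIs per cell the 2 kinds were at 1.42 and 1.43. The CDK inhibitor genes *Cdkn2c* (p18), *Cdkn2d* (p19) and *Cdkn2a* were called higher, at log2 ratios of 1.55, 1.77 and 1.29 (0.66 for *Cdkn2a* with the weights), whereas *Cdkn1b* (p27) was at −0.53 and *Cdkn1a* (p21) at 0.10.

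Among transcription factors of the cycle, 10 of 17 E2F, pocket protein and MuvB genes were called higher and none lower. The repressor-type *E2f7* and *E2f8* had log2 ratios of 5.02 and 4.01, the activator *E2f1* 1.66 (higher in 7 of 8 libraries), the mitotic activators *Mybl2* and *Foxm1* 3.91 and 3.31, and the pocket protein gene *Rbl1* (p107) 1.43. *E2f4* (0.40), *Rb1* (0.47) and *Rbl2* (p130, 0.07) were not called.

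Chromosome and chromatin supply genes were largely higher. All 8 condensin genes were called higher in all 8 libraries, from *Ncaph2* (1.03) to *Ncapg* (4.20). Of 24 histone and histone chaperone genes, 19 were called higher, none lower. The linker histone gene *Hist1h1b* was at 255, 765 and 1144 CPM in cycling and 12.3, 17.5 and 32.4 in non-cycling cells (log2 5.14, 4.90 to 5.39), while the replication-independent *H3f3a* and *H3f3b* were at 0.30 and 0.24. Replication-dependent histone mRNAs mostly lack a poly(A) tail and their genes are near-identical copies, so that their counts from a 3′ poly(A) assay are uncertain.

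Of 23 nucleotide and one-carbon metabolism genes, 13 were called higher and none lower. The thymidylate branch was among them, with *Tyms* at 3.06 and *Tk1* at 2.92 on the log2 scale, as were the mitochondrial folate enzyme *Mthfd2* (1.40) and the serine synthesis enzyme *Phgdh* (1.30). De novo purine genes were not called, with *Gart* at 0.82, *Paics* at 0.95 and *Atic* at −0.01. With the weights, computed for the 20 of these genes that were not also on the S-phase list, 7 were 2-fold or more higher. None of 17 glycolysis genes and none of 24 respiration genes was called, with medians of 0.25 and 0.36, and with the weights only the lactate transporter gene *Slc16a1* passed 2-fold (1.26, 0.76 without). *Ldha* (0.53) and *Gapdh* (0.45) in glycolysis and *Cycs* (0.55) in respiration were all higher in 8 of 8 libraries without reaching 2-fold. With the weights *Ldha* was at 0.02, *Gapdh* at 0.18 and *Cycs* at 0.24.

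Polycomb genes are of interest because the drug of the study targets EZH2. Of 23 genes of PRC2, PRC1 and the H3K27 demethylases tested, 3 were called higher and 1 lower, with a median log2 ratio of −0.12. *Ezh2* (ENSMUSG00000029687, chr6:47530139-47595341, minus strand) was at 156, 193 and 280 CPM in cycling and 22.7, 49.6 and 56.1 in non-cycling cells. Every library of cycling cells was above every library of non-cycling cells, and the log2 ratio was 2.14 (1.96 to 2.33), or 4.42-fold. It was 2.19 with the weights, 2.03 in the libraries with Y-linked UMIs and 2.30 in those without. After thinning, 16.3% of cycling, 4.47% of non-cycling and 4.09% of B cell-gated cells held *Ezh2*. The interval of the non-cycling share (3.69 to 5.36) lay within that of the B cell-gated cells (1.66 to 8.25, 7 of 171 cells), at median depths before thinning of 2727 and 1614 UMIs.

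The other core subunits of PRC2 showed smaller ratios. *Suz12* (ENSMUSG00000017548, chr11:79993106-80034123, plus strand), which holds the complex together, was at 123, 169 and 214 CPM against 56.8, 75.7 and 103, a log2 ratio of 1.15 (0.99 to 1.31) with no overlap between libraries. The histone-binding subunit *Rbbp7* was called at 1.22 (0.85 with the weights), and its paralog *Rbbp4* was at 0.84 (1.03 with the weights). The H3K27me3 reader *Eed* was at 0.28 (0.01 to 0.56), and *Ezh1*, the alternative catalytic subunit, at −0.47 (−0.90 to −0.04). *Phf1*, an accessory subunit, was called lower at −1.34 on 9.05 and 25.0 CPM, and at −0.36 with the weights. The demethylase genes *Kdm6a* and *Kdm6b* were at −0.29 and −0.23.

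The promoters of the catalytic and the scaffold subunit are shown because the library values of the 2 kinds did not overlap for either gene, with the same conventions as above. They lie at chr6:47595031-47595280 (minus strand, *Ezh2*) and chr11:79992856-79993105 (plus strand, *Suz12*), GRCm38.p6.
Ezh2: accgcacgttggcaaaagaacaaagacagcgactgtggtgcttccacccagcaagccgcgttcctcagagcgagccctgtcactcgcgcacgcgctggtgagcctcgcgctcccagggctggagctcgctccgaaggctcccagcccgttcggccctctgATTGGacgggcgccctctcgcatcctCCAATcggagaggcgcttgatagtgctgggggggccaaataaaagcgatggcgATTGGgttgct
Suz12: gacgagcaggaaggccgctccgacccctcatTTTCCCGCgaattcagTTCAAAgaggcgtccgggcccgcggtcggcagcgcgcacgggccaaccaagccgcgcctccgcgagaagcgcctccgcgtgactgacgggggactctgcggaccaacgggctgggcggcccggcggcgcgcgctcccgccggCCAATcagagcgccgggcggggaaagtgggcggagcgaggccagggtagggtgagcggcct
The *Ezh2* window lies inside the GENCODE span given above, which begins upstream of the RefSeq start. It held CCAAT 3 times, once on its own strand, and none of the other letters. The *Suz12* window held TTTCCCGC 219 to 212 bases before the start, TTTGAA on the opposite strand and CCAAT at 61 to 57 bases. Over the 24 genes of the Polycomb list with an entry (of 29), 5 (20.8%) held TTTGAA and 11 (45.8%) held CCAAT, against 18.3% and 37.5% of all promoters.

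Of 5 DNA methylation genes tested, the maintenance pair was called higher, of which *Uhrf1* is also on the S-phase list. *Dnmt1*, the maintenance methyltransferase, was at 161 and 56.3 CPM (log2 1.5), and *Uhrf1*, which recruits it to hemimethylated DNA, at 87.7 and 14.3 CPM (log2 2.57). Library values did not overlap for either gene.

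**Figure D4:**
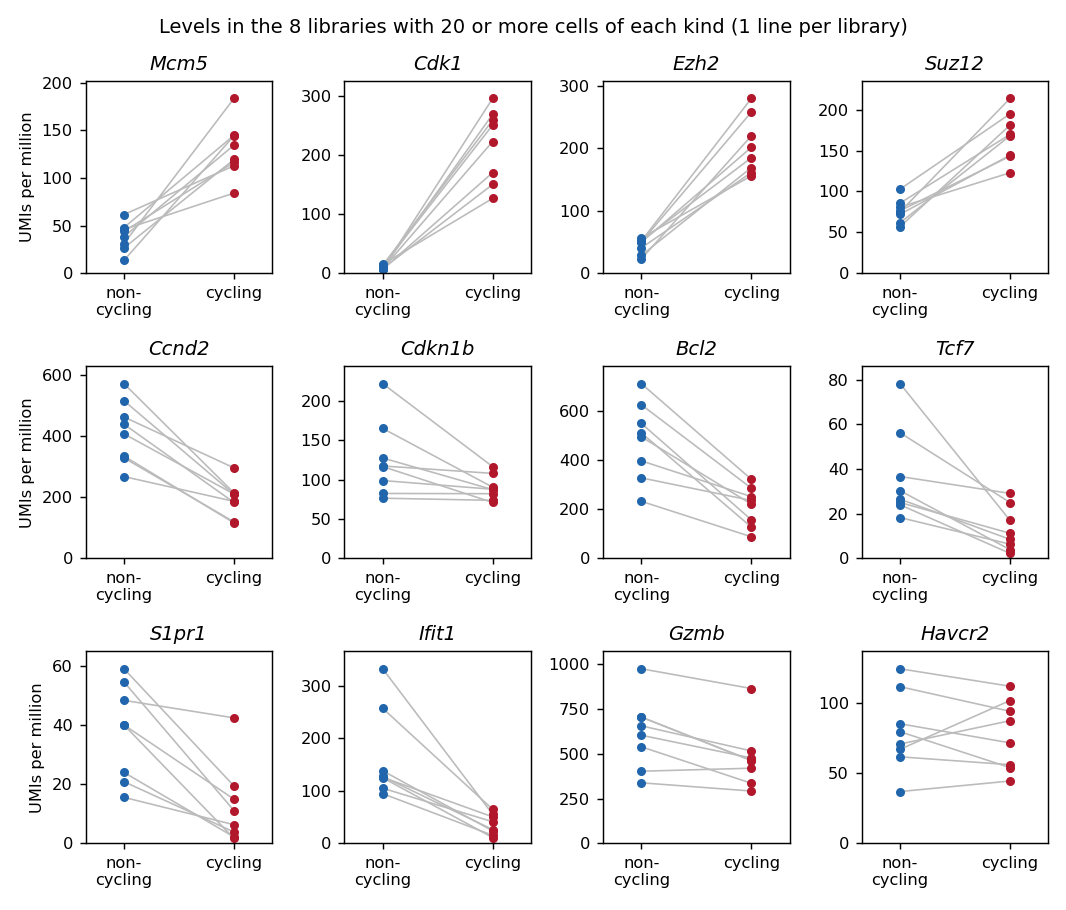
CPM (y axis) of single genes in non-cycling and cycling CD8-gated cells, with 1 line for each of the 8 libraries that had 20 or more cells of each kind. For *Cdk1* and *Ezh2* all lines rose with no overlap (*Ezh2* at 22.7 to 56.1 and 156 to 280), and for *Bcl2* all lines fell with overlapping ranges.

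The BCL2 family sets the balance of lymphocyte survival and death. Of 11 genes tested, 1 was called lower and none higher, and the median log2 ratio was −0.26. *Bcl2* (ENSMUSG00000057329, chr1:106538178-106714274, minus strand), the antiapoptotic founder of the family, was at 87.8, 228 and 322 CPM in cycling and 232, 503 and 712 in non-cycling cells, a log2 ratio of −1.09 (−1.20 to −0.99). Cycling cells were lower in 8 of 8 libraries, but the weighted value was −0.36 and the levels per cell were 1.56 and 1.61 UMIs. *Bcl2l11*, which encodes the proapoptotic BIM, was at −0.61 and −0.23 with the weights, *Mcl1* at −0.51, and *Bax* at 0.25. With the weights the gene past 2-fold was *Bcl2a1a*, a family member with close copies, at −1.82 against −0.87 without. It was at −1.14 in the libraries with Y-linked UMIs and 0.04 in those without, and in library 9 it was higher in cycling cells, at 127 against 45.0 CPM.

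Of 19 granzyme, perforin, cytokine and chemokine genes tested, none was called higher and 2 lower. The chemokine gene *Ccl5* was at 392, 1362 and 6306 CPM in cycling and 1645, 5847 and 19404 in non-cycling cells, a log2 ratio of −1.72 (−1.75 to −1.68), and at −0.92 with the weights. It was lower in cycling cells in 8 of 8 libraries, with a spread between libraries wider than the difference. *Gzmd*, a granzyme gene in a cluster of close copies, was called at −1.05 but was at 0 in some libraries, and it lost the call without library 1 (−0.96), library 3 (−0.86) or library 7 (−0.92). *Gzmb* was at 506 and 627 CPM (log2 −0.35), *Prf1*, the perforin gene, at 0.09, and *Ifng* at 0.35 although lower in 5 of 8 libraries. *Ccl4* was at 0.40 and lower in 6 of 8 libraries. Library 8, with 26 cycling cells, held it at 2884 CPM against 788 in non-cycling cells, and without that library *Ccl4* was at −0.50. It was at −0.41 in the libraries with Y-linked UMIs. With the weights 4 of the 19 genes were 2-fold or more lower, *Gzmd* (−2.64), its neighbor copy *Gzme* (−2.42), and the chemokine genes *Ccl3* (−1.31, −0.76 without) and *Ccl9* (−1.01, −0.41 without). The same weights gave 313 lower genes over all genes, against 136 without, and moved macrophage markers past 2-fold. Whether UMIs of other cells entered these values was not tested.

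No inhibitory or costimulatory receptor gene was called. Over 12 inhibitory receptor genes the median was −0.13. *Btla*, an inhibitory receptor of B and T cells, was at −0.58 and passed 2-fold with the weights, at −1.35. *Pdcd1*, encoding PD-1, was at 175, 312 and 415 CPM in cycling and 226, 278 and 523 in non-cycling cells (log2 −0.07, −0.18 to 0.03), and at equal thinned depth 22.4% and 22.5% of cells held it, with 0% of B cell-gated cells. *Havcr2*, encoding TIM-3, was at 77.8 and 71.1 CPM (0.00, −0.21 to 0.21) but at −0.84 with the weights, and *Lag3* at −0.26. Unthinned, *Pdcd1* was seen in 59.5% of the cycling cells and *Havcr2* in 31.3%. None of 8 costimulatory genes was called: *Tnfrsf9*, encoding 4-1BB, was at 331 and 260 CPM (log2 0.23) and *Icos* at −0.79, lower in 8 of 8 libraries.

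Of 19 exhaustion and effector transcription factor genes, only *Maf* was called, lower at −1.70 (−0.92 with the weights). Over all libraries it was at 53.5 CPM in cycling and 234.9 in non-cycling cells. The lowest, median and highest library values were 0, 20.7 and 200 CPM against 34.5, 126 and 759, lower in 8 of 8 libraries with wide overlap. *Tox*, the regulator of the exhausted state, was at 139 and 129 CPM (0.12, −0.03 to 0.28), with UMIs in 45.6% of cycling cells. None of 13 T cell receptor and signalling genes outside the gate was called (median −0.23). Of 20 cytokine and chemokine receptor genes, *S1pr1* was called lower and no gene higher, with a median of −0.40.

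Without the weights, memory and stemness genes gave the most calls among the lists of T cell function. Of 15 tested, 5 were called lower, 4 of them in all 8 libraries, and 2 higher, with a median of −0.87. With the weights 3 were 2-fold or more lower and 1 higher, with a median of −0.44, no more than the 4 lower genes of the granzyme and cytokine list. Over all genes the weights gave 313 lower and 425 higher, against 136 and 447 without. *Tcf7* (ENSMUSG00000000782, chr11:52252371-52283014, minus strand), which encodes TCF-1, the factor that marks stem-like CD8+ T cells, was at 2.19, 9.84 and 29.1 CPM in cycling and 18.2, 28.4 and 78.2 in non-cycling cells. Its log2 ratio was −1.35 (−1.75 to −0.95), and cycling cells were lower in 8 of 8 libraries, with overlap. With the weights it was −0.33. *Tcf7* was seen in 44 of the 524 cycling cells (8.40%), and after thinning in 1.53% of cycling and 5.40% of non-cycling cells, with 0% in B cell-gated cells.

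Memory genes called lower also included *S1pr1* (the receptor for lymphoid egress, −1.59, −0.61 with the weights), *Klf3* (−1.39 and −0.71) and the chromatin organizer *Satb1* (−1.31 and −1.05). Of these 3, *Satb1* passed 2-fold with and without the weights. *Il7r* (−0.84), *Lef1* (−0.93) and *Slamf6* (−0.98) were each lower in 8 of 8 libraries without reaching 2-fold, and with the weights they were at −0.44, −0.25 and −0.13. *Bach2*, a repressor of effector genes, was at −0.74, and at −1.12 with the weights. *Myb*, a proto-oncogene active in dividing progenitors, was called higher at 1.22 (7 of 8 libraries, 0.62 with the weights), and *Dapl1* at 1.40 in 6 of 8 libraries and at 0.62 without library 11. GIMAP genes, small GTPases of resting lymphocytes, had a median of −0.81 over 8 genes, with *Gimap3* (−1.27, −0.43 with the weights) and *Gimap6* (−1.17, −0.36) called lower.

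Part of the interferon-stimulated genes were lower in cycling cells. Of 16 tested, 5 were called lower and none higher, with a median of −0.66 and a highest value of −0.26. *Ifit1*, an antiviral RNA-binding protein, was at 11.2, 33.8 and 65 CPM in cycling and 94.7, 127 and 332 in non-cycling cells, a log2 ratio of −2.04 (−2.28 to −1.79) with no overlap between libraries. It was at −1.39 with the weights, and *Rsad2* (viperin) at −1.50 and −1.42, so that both passed 2-fold either way. *Ifit3* (−1.47), *Ifit2* (−1.02) and *Mx1* (−1.02) did not with the weights, at −0.79, −0.78 and −0.48. *Ifit2* fell short of 2-fold without any 1 of 5 libraries (2, 3, 5, 6 and 8, between −0.99 and −0.93), and *Mx1* without library 6 (−0.91) or library 8 (−0.88). Macrophage markers were lower in the same cells, by a median of −0.68 over 14 genes, none called. With the weights 6 of the 14 were 2-fold or more lower, with a median of −0.88, among them *Cd74* (−1.47), *Cd68* (−1.14) and *Cd14* (−1.10), as were 3 of the 16 interferon genes, *Oasl2* (−1.20) being the one not yet named. With cells above 0.5% of UMIs on lists of other cells left out, *Ifit1* was at −2.35, *Ifit3* at −1.62, and *Rsad2* at −1.36. Of 21 heat shock and immediate early genes, *Hspa1a* (−1.06) and *Hspa1b* (−1.32), which are near-identical copies, were called lower, and without library 8 they were at −0.79 and −0.93. With the weights they were at −0.89 and −1.40, so that *Hspa1b* alone of the list was past 2-fold. *Hspa1a* also missed 2-fold without library 1 (−0.96) or library 9 (−0.92).

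Of the 20 highest genes of the ranking 7 belonged to a list, and of the 20 lowest 6. The highest included *Shcbp1* (207 UMIs in cycling and 4 in non-cycling cells, log2 6.95, 5.45 to 8.45), *Esco2*, the cohesin acetyltransferase of S phase (6.70), *Mxd3* (6.59), the spindle genes *Aspm* (5.94) and *Nusap1* (5.49), and the kinetochore gene *Spc25* (5.12). All of these were under 10 CPM in non-cycling cells, *Shcbp1* at 0.459 and *Nusap1* at 5.27. They were thus tested only through the cycling cells, and the size of their ratios rests on few non-cycling UMIs. The 20 lowest, among genes lower in all 8 libraries, began with *Tcp11l2*, at 0, 7.85 and 11.2 CPM in cycling and 19.1, 37.0 and 59.8 in non-cycling cells (log2 −2.63, −3.26 to −2.0), followed by the H3K4 demethylase gene *Kdm5b* (−2.18) and *Ripor2* (−2.06), an inhibitor of RHOA signalling. The list also held *Crim1* (−1.81) and the Schlafen gene *Slfn5* (−1.78). Of these, *Tcp11l2*, *Kdm5b*, *Ripor2* and *Crim1* were under 10 CPM in cycling cells and were tested only through the non-cycling cells. In UMIs per cell the log2 ratios were smaller, at −1.48 for *Tcp11l2*, −0.99 for *Kdm5b*, −0.88 for *Ripor2*, −0.65 for *Crim1* and −0.72 for *Slfn5*. Weighted values are not given for these genes, and over all genes 62 of the 136 lower calls were shared with the weights.

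The cycling cells were then divided by the S-phase part of their summed S-phase and G2/M UMIs, at its median of 0.308. The 258 cells above it are called S-rich and the 263 at or below it G2/M-rich, and 92 cells lay within 0.05 of the boundary. These names are relative. Only 92 cycling cells had more S-phase than G2/M UMIs and 31 had equal numbers, so that many S-rich cells held more G2/M UMIs. Their median depths were close, at 5338 and 5253 UMIs. Only genes outside the 2 lists were compared. Of 7371 tested, 96 (1.3%) were 2-fold or more higher in S-rich cells and 107 (1.45%) lower.

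Of 21 nucleotide and one-carbon metabolism genes, 5 were higher in S-rich cells and none lower, with a median log2 ratio of 0.62. Of 19 cyclin, CDK and CDK inhibitor genes, 3 were higher and 4 lower. The genes that follow were named after their values were seen. *Ccne1* was at 54.3 CPM in S-rich and 20.01 in G2/M-rich cells (log2 1.5), *Mcm3*, a helicase subunit, at 168.5 and 84.1 (1.03), and *E2f1* at 1.20. On the other side *Ccnb1* was at 31.3 and 135 CPM (−1.98), the phosphatase gene *Cdc25b* at −2.08, the mitotic kinase gene *Plk1* at −1.66, and *Kpna2*, an importin, at 16.5 and 88.3 CPM (−2.37). *Ezh2* differed little between them at 0.31, as did *Suz12* at 0.26, *Bcl2* at 0.09 and *Ccnd2* at 0.08. None of the tested genes of the glycolysis, respiration, Polycomb, inhibitory receptor or interferon lists was called between the 2 sets, and in the interferon list the median was −0.44.

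The same ratio was formed in CD4-gated T cells (57 cycling, 600 non-cycling) and macrophage-gated cells (8776 cycling, 39888 non-cycling). There 707 (9.32%) and 385 (5.19%) of the tested genes were called higher and 546 (7.2%) and 27 (0.364%) lower, the CD4 counts resting on few cells. Median log2 ratios of S-phase genes tested in all 3 types were 1.81 in CD8, 2.22 in CD4 and 2.12 in macrophage-gated cells, and of G2/M genes 3.50, 4.46 and 3.89. *Ezh2* was at 2.14, 2.28 and 2.52 and *Suz12* at 1.15, 1.30 and 1.11.

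Several of the lower genes had other values in macrophage-gated cells. *Ccnd2* was at −1.08 in CD8, −0.29 in CD4 and 0.01 (−0.02 to 0.04) in macrophage-gated cells, *Bcl2* at −1.09, −0.93 and −0.11, and *Ifit1* at −2.04, −2.19 and −0.35. The interferon list had medians of −0.66, −0.97 and −0.20 and the glycolysis list 0.25, 0.19 and −0.21. These differences between cell types were not tested. Median depths of cycling and non-cycling cells were 7941 and 2810 UMIs in the CD4 gate and 12342 and 6630 in the macrophage gate, so that the ratio of depths differed between the types as well.

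**Figure D5:**
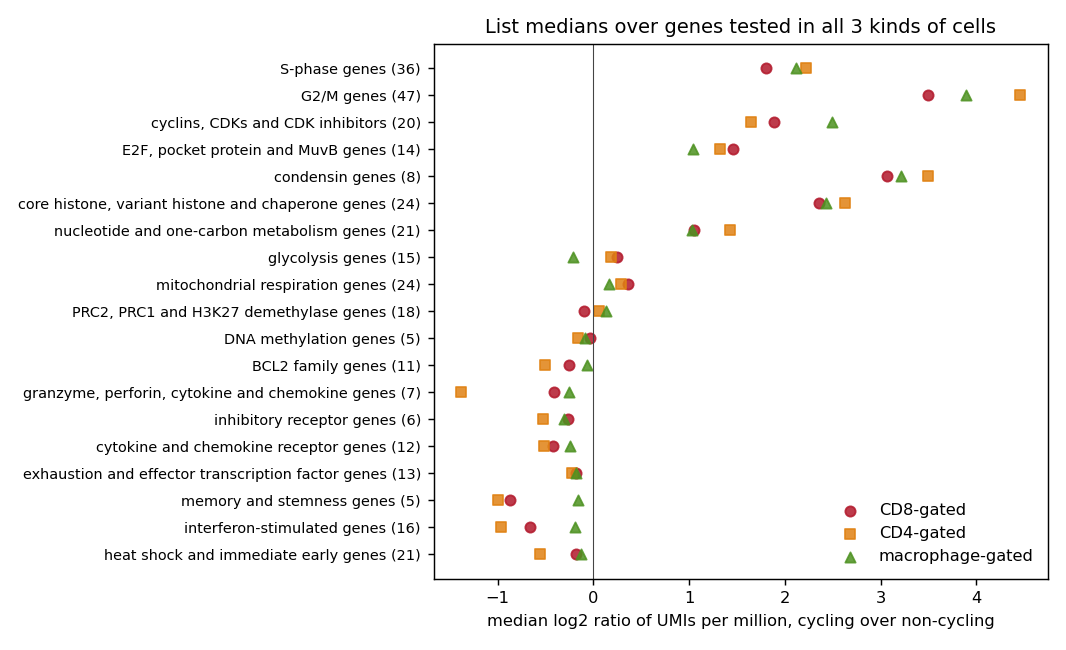
Median log2 ratio of CPM, cycling over non-cycling (x axis), of each gene list in CD8-, CD4- and macrophage-gated cells, over genes tested in all 3 (number beside each list). The S-phase and G2/M lists lay well to the right in all 3 types, and the interferon list lay at −0.66, −0.97 and −0.20.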

How the data were processed

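Single-cell libraries were made with the 10x 3′ v3 kit. The deposited matrix holds raw UMI counts of 31053 genes in 140639 barcodes, which the authors made with Cell Ranger (2.1.1 per the labels, 3.0.2 per the matrix header) against mm10. Of the gene identifiers, 30934 matched GENCODE M21, from which coordinates were taken. The limits of the study were applied to barcodes: above 200 genes, below 5000 genes, and no more than 10% of UMIs from mitochondrial genes. Doublets were not called, and no annotation of cells was used.

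Genes were compared by within-library ratios of UMIs per 1000000, pooled with Mantel-Haenszel weights, with intervals for counting error. Genes needed a mean of 10 on that scale and were called at 2-fold. Because the pool is 1 sample, nothing was tested. Thinning drew 1000 UMIs per cell without replacement (2000 as an alternative). Named genes were those of the lists and the gate, and the 20 highest and 20 lowest called genes with 1 direction in all 8 libraries. Among genes outside the lists, those that separated S-rich from G2/M-rich cells were chosen after their values were seen. The members, gene lists and alternatives were chosen with earlier results of these data known. A few list genes are not reported here by name. Scripts were checked on simulated data. Promoter sequences came from RefSeq (GRCm38.p6). The scripts ran in Python (3.11.15), with figures from matplotlib (3.10.9), intervals from scipy (1.17.1), and arrays from numpy (2.4.6) and pandas (2.3.3).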

Additional observations from a re-analysis of the deposited data

How the results depend on the processing

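The number of cycling cells and their share of CD8-gated cells were 524 and 13.5%. They were 318 and 8.22% with *Mki67* and *Top2a* at 2 UMIs or more, and 106 and 4.15% after thinning to 1000 UMIs. The share was 16.7% with 2 UMIs or more of the CD3 and CD8 sums, and also 16.7% without cells above 0.5% of UMIs on lists of other cells. Leaving out 1 library at a time gave 380 to 523 cells and 12.8 to 14.3%.

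Genes called lower were 136, and 217 with the rule at 2 UMIs, 313 with non-cycling cells weighted by UMI count (62 shared with the 136), and 269 in the libraries without Y-linked UMIs. Without a filter on low levels 1286 were higher and 989 lower (39 lower in the lists), and at 1.5-fold 937 and 645 (69 in the lists). A pair of alternatives was added after seeing the data: the median of the libraries' ratios gave 229 lower genes, and non-cycling cells with under 2 S-phase and G2/M UMIs per 1000 gave 289, with 36 in the lists. Leaving out 1 library gave 436 to 479 higher and 126 to 180 lower genes, and in the lists 138 to 146 higher and 19 to 25 lower, and 16 list genes lost their call at least once. Of these, *G0s2* (−1.41 without library 12), *Gas2l3* (2.07 without library 6, and also past 2-fold without library 5) and *Wee1* (1.52 and 1.06 without libraries 5 and 7) stayed past 2-fold and dropped below the limit on level instead.

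*Ctps* turned from 1.01 to −0.12 with the weights, and *Fscn1*, a dendritic cell marker, from −1.57 to 0.25 without cells above 0.5% on lists of other cells; the cause was not tested. Values under alternatives were counted for the 339 tested list genes outside the S-phase and G2/M lists. Of 8129 values, 7253 stayed within the interval of the main value, 874 moved beyond it and 2 were reversed. Only the 81 called genes could count as reversed. A change of sign in a gene that was not called, such as *Ccl4*, fell under the other counts.

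No paired analysis was possible because the labels' replicate numbers name separate mice in each group and are tied to no library. This concerns those numbers only, since every ratio compared cells within libraries. With 524 cells, genes under 10 CPM were not assessed, and intervals leave out differences between mice.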

Other observations

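The dendritic and neutrophil marker lists held the other called genes, all lower in cycling CD8+ T cells and none lower in all 8 libraries. They were *Fscn1* (log2 −1.57) of 5 dendritic cell genes tested, and *G0s2* (−1.60) and *S100a8* (−1.06) of 4 neutrophil genes tested. *S100a8* fell short of 2-fold without any 1 of libraries 1, 2, 4, 8 and 11, with values between −0.98 and −0.67. With non-cycling cells weighted by UMI count, 4 of the 4 neutrophil and 3 of the 5 dendritic cell genes were 2-fold or more lower. Over all genes 313 were lower with those weights and 136 without. Without the weights, none of the tested natural killer (4), γδ T cell (2), CD4 or regulatory T cell (5) or tumor and stromal (3) markers was called, and no B or plasma cell marker reached the limit on level.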
